A study of Homo sapiens with 48 samples.

Results

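The data described here are the difference between the transcriptional responses of 2 human lung cancer cell lines, H-1299 and H-23, to carfilzomib, an irreversible inhibitor of the proteasome. The difference was the contrast named by its rule: the log2 fold change after carfilzomib in H-1299 minus that in H-23, taken for every gene in a matrix of read counts. It rests on 12 libraries of the 48 in the study, 6 from each line. The groups were H-23 with DMSO (the solvent control), H-23 with carfilzomib, H-1299 with DMSO and H-1299 with carfilzomib, each with 3 biological replicates after 24 h in monolayer culture. Per the labels, each line received carfilzomib at its own IC50 for proteasome activity, the concentration at the midpoint of inhibition. The concentrations are not given in the sources used here, so the line and the dose it received cannot be told apart in any difference below. Each group is 1 established line of 1 tumour. H-1299 was derived from a lymph node metastasis of a non-small cell lung carcinoma, lacks p53 and carries an NRAS mutation. H-23 was derived from a lung adenocarcinoma and carries mutant p53.

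The proteasome degrades proteins that are tagged with chains of ubiquitin. When it is blocked, unfolded proteins accumulate, heat shock factor 1 (HSF1) turns on chaperone genes, and the transcription factor NRF1 (gene NFE2L1) turns on the genes of the proteasome's own subunits. Cells can also raise autophagy, the unfolded protein response of the endoplasmic reticulum (ER), the NRF2 program against oxidative stress and the integrated stress response, which acts through ATF4. Cyclins, p53, IκB and many short-lived regulators are degraded by the proteasome, so cell division and signalling are commonly affected as well.

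Total counts per library ran from 19686952 to 55017608 in H-23 and from 24017029 to 64369098 in H-1299. These totals set the counting error only. Correlations of log expression between replicates were at least 0.986, and no pair of replicates looked like a library counted again: their counts gave a chi-square of 4.12 or more for each degree of freedom, where counting error alone gives about 1. All 12 libraries were kept. The first principal component held 84.3% of the variance and separated the lines, and the second held 6.45%. On the fourth, with 1.48%, carfilzomib replicate 3 of H-1299 stood at 47.6, away from replicates 1 and 2 at -31.1 and -20.1. Cross-mixing of the lines was small in the carfilzomib libraries. It was read from genes chosen as silent in a line, with at most 2 counts summed over its 3 DMSO libraries. In H-23 with carfilzomib, 42 such genes stood at no more than 0.0282% of their H-1299 level. In H-1299 with carfilzomib, 72 such genes stood at no more than 0.0489% of their H-23 level. Low levels in the DMSO libraries follow from the choice of genes, so mixing in those libraries was not tested. Levels are given below as CPM, the usual unit of a gene's counts relative to the library's total, here scaled by a TMM factor, which adjusts for composition. Both lines expressed the epithelial keratin KRT18 and the mesenchymal filament VIM. CDH1 (E-cadherin) stood at 103 CPM in H-23 with DMSO and had no count in H-1299 with DMSO. The lung markers SFTPB and NAPSA stayed at or under 2.41 CPM and SFTPC under 0.04 CPM in the mean of every group. CD3E (T cells) had no count, and 9 blood and endothelial markers summed to between 1.99 and 5.98 CPM. The 7 neuroendocrine markers summed to between 7.46 and 28.9 CPM, mostly from CHGB and SYP, while CHGA had no count. Since these are bulk samples, a change in the number of cells of a kind and a change in RNA per cell cannot be told apart.

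More genes were called after carfilzomib in H-1299 than in H-23, and changes called in both lines were mostly larger in H-1299. Of 19070 genes tested, edgeR's quasi-likelihood test called the difference (Benjamini-Hochberg adjusted p under 0.05) for 4165 genes whose change was higher in H-1299 (21.8%) and 3937 whose change was lower there (20.6%), 42.5% in all. Within H-1299, 5177 genes rose (27.1%) and 5551 fell (29.1%), 56.3% in all. Within H-23, 2402 genes rose (12.6%) and 2663 fell (14%), 26.6% in all. Of the genes called for the difference, 603 differed by at least 2-fold upward in H-1299 and 1224 by at least 2-fold downward.

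Most genes that were called in both lines moved the same way. There were 3938 such genes, and 80.6% of them shared a direction: 1591 rose in both lines (8.34% of the genes tested) and 1584 fell in both (8.31%). Among these shared genes the absolute log2 fold change had a median of 0.62 in H-1299 and 0.31 in H-23, and it was larger in H-1299 for 2613 of 3175. The difference was called for 1855 of the shared genes, with the larger change in H-1299 for 1752 and in H-23 for 103. Opposite calls, each with the difference called as well, were made for 408 genes that rose in H-1299 and fell in H-23 (2.14%) and for 355 that fell in H-1299 and rose in H-23 (1.86%). These opposite changes were mostly small: 15 genes of the first pattern and 45 of the second changed by at least 1.5-fold in each line. A further 4680 genes, 57.8% of those called for the difference, had a call in H-1299 only, and 583 had one in H-23 only. A call in H-1299 alone did not show a difference, since 2110 genes had such a call without a call for the difference. Across genes, the log2 fold changes of the lines had a Pearson r of 0.196 over all genes tested and 0.407 over the 12831 genes expressed in both lines, that is, those whose mean reached 50 counts with DMSO or with carfilzomib in each line. Genes are not independent replicates, and the lines share no library.

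**Figure D1:**
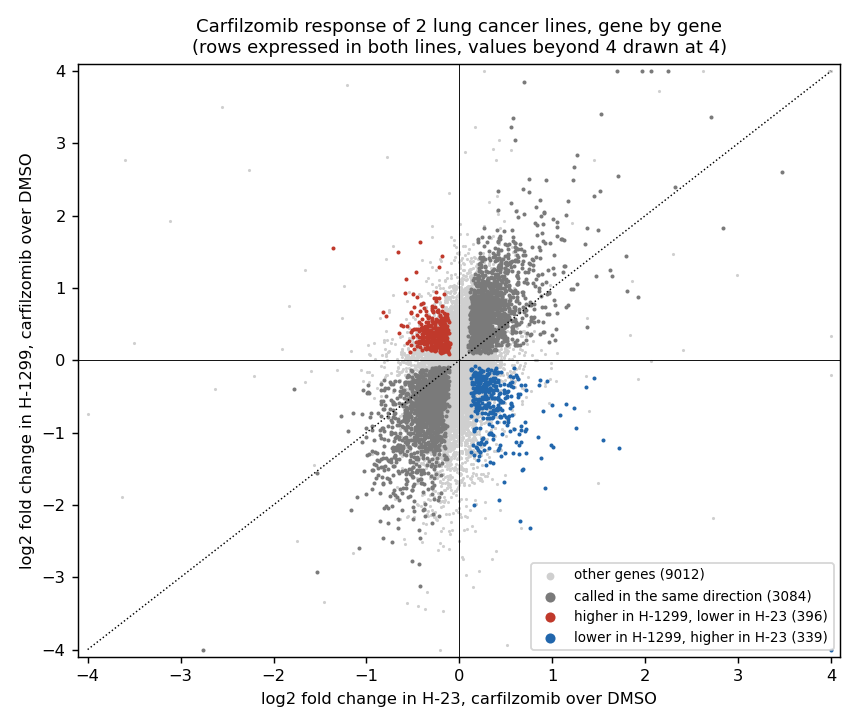
Each point is a gene expressed in both lines, with its log2 fold change after carfilzomib in H-23 on the x axis and in H-1299 on the y axis, both from edgeR and drawn at 4 where they lie beyond. The 3084 genes called in the same direction (dark grey) mostly lie farther from 0 on the H-1299 axis than the dotted line of equal change, while 396 genes (red) and 339 genes (blue) were called in opposite directions.

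The lists that follow are groups of genes with a known role. They were chosen with earlier results of these data known, so their counts are descriptions and not independent support. Their members are described by how many were called and by the median log2 value, beside the shares of all genes tested given above. The median difference of all genes tested was 0.0047 on the log2 scale. Scaling by library totals in place of TMM moved the median change of all genes in H-1299 from -0.01 to -0.12, and changes in H-1299 are to be read relative to that shift.

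Most inducible chaperone genes rose in H-1299, and most had a larger change there than in H-23. Of 21 inducible heat shock chaperones tested, the difference was called higher in H-1299 for 18 and lower for none, with a median difference of 0.70. In H-1299, 20 rose and none fell (median 0.90). In H-23, 7 rose and 2 fell (median 0.11). The same 7 genes that rose in H-23 also rose in H-1299, and HSPA2 and HSPA4L, both of the HSP70 family, rose in H-1299 and fell in H-23. Under scaling by library totals the difference was called higher for 16 and lower for 1, with a median of 0.60.

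HSPA1A (ENSG00000237724) and HSPA1B (ENSG00000232804) encode the major stress-inducible HSP70. The files split them over 8 rows, and these were summed because the transcripts are near-identical. In H-23 the sum stood at 5.77, 6.07 and 5.29 CPM with DMSO and at 13.1, 22.7 and 36.5 CPM with carfilzomib. In H-1299 it stood at 8.83, 5.86 and 7.67 CPM with DMSO and at 582, 772 and 248 CPM with carfilzomib. The treatments did not overlap in either line, and every treated H-1299 library lay above every treated H-23 library. The log2 fold change was 6.14 ± 0.38 (SE) in H-1299 and 2.15 ± 0.41 in H-23, a difference of 3.99 ± 0.57 (adjusted p = 1.96e-05, edgeR).

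HSPA6 (ENSG00000173110) encodes HSP70B', an inducible HSP70. It went from 4.54, 4.08 and 5.36 CPM to 21.9, 21.7 and 23.8 CPM in H-23. In H-1299 it went from 0.557, 0.362 and 0.31 CPM to 106, 94.1 and 82.2 CPM. Thus H-1299 began below H-23 and ended above it, with no overlap among the 4 groups. The difference was 5.50 ± 0.21 on the log2 scale (adjusted p = 4.68e-12), the largest positive one among genes expressed in both lines that the naming rule allows.

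HSPA8 (ENSG00000109971), the constitutive HSP70, behaved differently from its inducible relatives in H-23. Its H-23 libraries read 2170, 1948 and 2213 CPM with DMSO and 2019, 2073 and 2065 CPM with carfilzomib, which overlap (log2 fold change -0.04, adjusted p = 0.72). Its H-1299 libraries rose from 3902, 4944 and 4026 CPM to between 12420 and 12770 CPM. The difference was 1.60 ± 0.09 (adjusted p = 1.23e-09). DNAJB1 (ENSG00000132002), the J-domain partner that hands clients to HSP70, showed the same arrangement, with 106, 108 and 113 CPM against 99.8, 101 and 107 CPM in H-23. In H-1299 it rose from 224, 239 and 226 CPM to 775, 755 and 713 CPM, a difference of 1.79 ± 0.06 (adjusted p = 2.5e-12). HSP90AA1, the stress-inducible HSP90, rose by 1.16 on the log2 scale in H-1299 and was not called in H-23 (0.11, adjusted p = 0.269), with a difference of 1.05 ± 0.10.

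BAG3 (ENSG00000151929), a cochaperone that routes HSP70 clients to autophagy, rose in both lines. Its levels were 55.5, 52.5 and 54.2 CPM against 84.8, 87.1 and 88.5 CPM in H-23, and 51.2, 56.7 and 51.8 CPM against 276, 287 and 262 CPM in H-1299. The DMSO libraries of the lines interleaved while the treated ones were far apart, and the difference was 1.69 ± 0.07 (adjusted p = 1.01e-11). HSPH1, an exchange factor for HSP70, gave 1.35 ± 0.07. Smaller differences were measured for the small heat shock protein HSPB1, at 0.27 ± 0.08, a call that was lost under library totals (0.16, adjusted p = 0.0916). HSPB8, the small heat shock protein that works with BAG3, rose by 2.25 in H-1299 and 2.92 in H-23, and its difference was not called (-0.66 ± 0.37, adjusted p = 0.166). CRYAB, a further small heat shock protein, had too few counts to be tested.

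The promoters of 4 stress genes are shown because they carry the letters known to bind HSF1 and belong to the genes with wide gaps between the lines. Each is the 250 bases before the annotated start, 5′ to 3′ on the gene's strand, from RefSeq on GRCh38.p14. The positions are chr1:161524290-161524539 (plus strand), chr6:31815293-31815542 (plus), chr11:123062137-123062386 (minus) and chr7:1160197-1160446 (minus). Capitals mark 2 adjoining inverted units of the heat shock element, GAANNTTC or TTCNNGAA, both of which read the same on either strand and may overlap.
HSPA6: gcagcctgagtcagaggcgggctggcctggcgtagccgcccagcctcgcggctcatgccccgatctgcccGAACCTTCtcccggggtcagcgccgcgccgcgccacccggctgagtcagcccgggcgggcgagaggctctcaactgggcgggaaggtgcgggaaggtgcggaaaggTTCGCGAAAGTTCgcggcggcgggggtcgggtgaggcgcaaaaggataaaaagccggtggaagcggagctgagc
HSPA1A: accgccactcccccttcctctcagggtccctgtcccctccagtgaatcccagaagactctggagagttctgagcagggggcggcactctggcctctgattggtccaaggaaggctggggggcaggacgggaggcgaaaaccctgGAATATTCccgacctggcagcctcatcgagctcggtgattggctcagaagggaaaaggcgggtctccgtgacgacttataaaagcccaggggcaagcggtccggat
HSPA8: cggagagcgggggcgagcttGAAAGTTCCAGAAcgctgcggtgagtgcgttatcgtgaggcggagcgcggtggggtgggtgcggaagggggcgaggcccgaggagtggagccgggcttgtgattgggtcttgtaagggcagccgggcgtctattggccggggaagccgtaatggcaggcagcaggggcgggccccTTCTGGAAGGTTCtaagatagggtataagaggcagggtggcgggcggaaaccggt
ZFAND2A: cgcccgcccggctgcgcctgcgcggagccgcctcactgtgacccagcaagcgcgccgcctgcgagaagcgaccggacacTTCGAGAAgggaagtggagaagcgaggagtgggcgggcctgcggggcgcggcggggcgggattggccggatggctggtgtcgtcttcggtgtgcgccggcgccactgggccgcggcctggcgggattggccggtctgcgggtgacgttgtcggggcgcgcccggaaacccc
HSPA6 held 3 matches and HSPA8 held 4, with overlapping matches that join into runs of 3 units, while HSPA1A and ZFAND2A held 1 each. Of 9382 genes tested that have a single RefSeq window and a single row, 8.9% held a 2-unit match and 0.277% a run of 3 units. The 2-unit match was found in 9.36% of the genes with a higher difference in H-1299 and in 5 of the 10 heat shock chaperones with a single window. A match describes the letters of the window and is not a measured binding site. In all, 13 motifs were searched, and those described here and below were chosen after their counts were seen.

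Ubiquitin genes were also raised more in H-1299. Of 22 members of the list of ubiquitin genes, p97 and its adaptors, the difference was called higher in H-1299 for 13 and lower for 3 (median 0.28). ZFAND2A (ENSG00000178381), also called AIRAP, encodes an arsenite-inducible zinc finger protein that associates with the proteasome and is a target of HSF1. It rose from 20.3, 17.1 and 20.1 CPM to 32.03, 32.1 and 29.6 CPM in H-23, and from 16.4, 15 and 16.3 CPM to 236, 228 and 226 CPM in H-1299. The lines started at similar levels and the treated libraries were far apart, with a difference of 3.16 ± 0.09 (adjusted p = 1.59e-13).

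UBB, which encodes a chain of ubiquitin units, rose by 0.46 in H-1299 and fell by 0.41 on the log2 scale in H-23. Ubiquitin units are repeated within and between genes, so how reads were divided among them is uncertain. STUB1, a ubiquitin ligase that works with HSP70 (also called CHIP), fell in both lines, with a difference of -0.66 ± 0.10.

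Most proteasome subunit genes were raised in both lines, more so in H-1299. Of 34 subunit and assembly genes, 30 rose in both lines, and 1 fell in both. The median log2 fold change was 0.85 in H-1299 and 0.39 in H-23, and the difference was called higher in H-1299 for 27 and lower for 2 (median 0.41). PSMD12 (ENSG00000197170), a subunit of the regulatory lid, rose from 108, 116 and 119.5 CPM to 165, 182 and 172 CPM in H-23, and from 145, 147 and 133 CPM to 422, 384 and 400.2 CPM in H-1299. Treatments were apart in both lines, and the difference was 0.91 ± 0.07 (adjusted p = 3.28e-08). PSMD3, another lid subunit, had the largest difference of the list, 0.96 ± 0.06.

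PSMB5 (ENSG00000100804) encodes the catalytic subunit that carfilzomib binds. It rose by 0.32 ± 0.04 in H-23 and by 0.48 ± 0.04 in H-1299, and the difference of 0.17 ± 0.06 (adjusted p = 0.0295) was near the limit of what was called. That call was lost under library totals (0.07, adjusted p = 0.339) and in 9 of the fits that left out a library or a replicate number. NFE2L1, the gene of the factor that drives subunit genes, had a difference of 0.18 ± 0.06, lost under library totals as well (0.07, adjusted p = 0.319). The 2 members with a lower difference in H-1299 were the assembly chaperones PSMG1 (-0.35) and PSMG3 (-0.43).

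**Figure D2:**
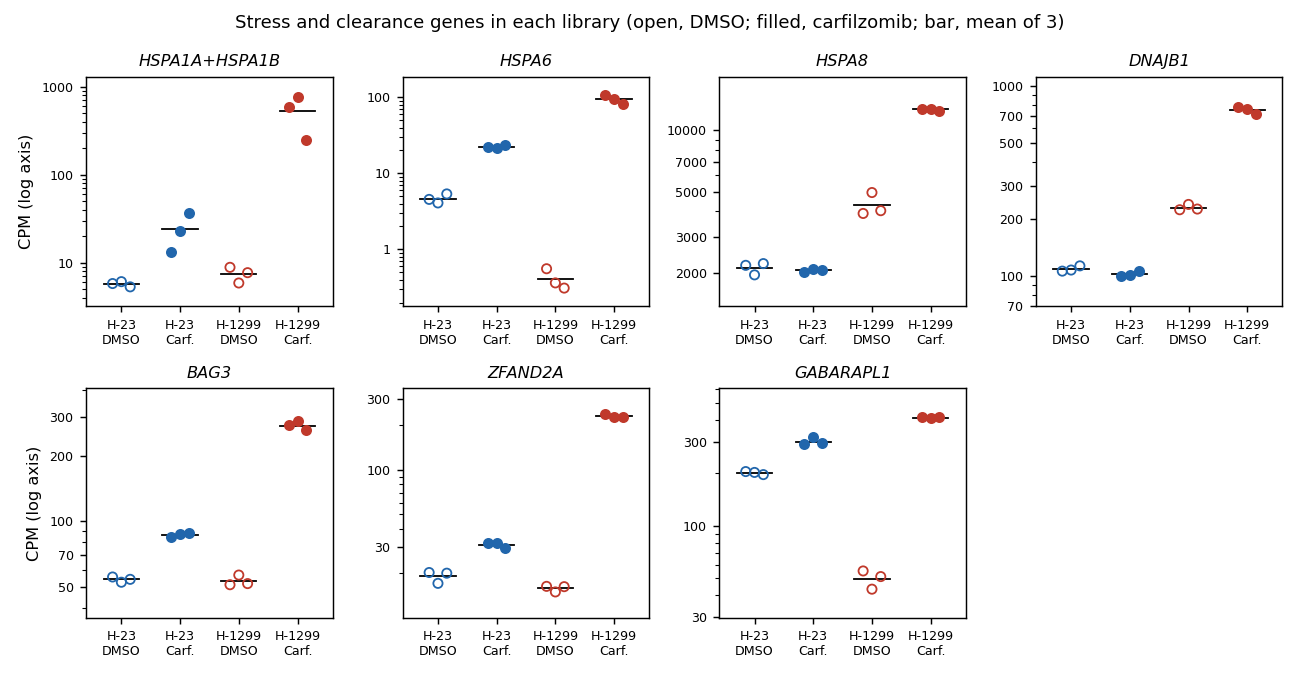
Levels of 7 genes in each library, in CPM on a log axis, with DMSO libraries open, carfilzomib libraries filled, H-23 in blue, H-1299 in red and the mean of 3 as a bar. In every panel the treated H-1299 libraries lie highest, and for HSPA8 and DNAJB1 the treated and control libraries of H-23 overlap.

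Many autophagy and lysosome genes rose in both lines. Of 27 autophagy genes, 13 rose in both lines, and the difference was called higher in H-1299 for 13 and lower for 4 (median 0.25). GABARAPL1 (ENSG00000139112), a member of the ATG8 family that coats autophagosomes, rose from 204, 201 and 196 CPM to 292, 320.5 and 295 CPM in H-23. Within H-1299 it rose from 55.1, 43.4 and 51.2 CPM to 416, 410.2 and 417 CPM. It was lower in H-1299 than in H-23 with DMSO and higher with carfilzomib, without overlap (difference 2.45 ± 0.09, adjusted p = 2.78e-12). MAP1LC3B, another ATG8 protein, rose by 1.57 in H-1299 and 0.78 in H-23, and the cargo receptor TAX1BP1 by 1.38 and 0.59.

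Of 23 lysosome genes, 12 rose in both lines, and the difference was called higher in H-1299 for 14 and lower for 5 (median 0.31). GLA (ENSG00000102393), the lysosomal alpha-galactosidase, rose from 58.1, 57.2 and 60.5 CPM to 112, 116 and 106 CPM in H-23. In H-1299 it rose from 34.97, 41.2 and 37.4 CPM to 210.1, 216 and 209 CPM. The treatments were apart in both lines (difference 1.56 ± 0.08, adjusted p = 1.42e-10).

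The ER unfolded protein response list was split between the lines. Of 21 members, the difference was called higher in H-1299 for 14 and lower for none (median 0.41). In H-1299, 13 rose and 4 fell, and in H-23, 5 rose and 6 fell. HSPA5 (ENSG00000044574), the ER chaperone BiP, stood at 242, 285 and 301 CPM against 292, 317 and 307 CPM in H-23, which overlap. It rose from 167, 155 and 164 CPM to 341, 311 and 296 CPM in H-1299, a difference of 0.82 ± 0.09 (adjusted p = 1.94e-06). DNAJC3, an ER cochaperone, gave the largest difference of the list, 0.99 ± 0.08. MANF and CALR, a secreted stress factor and the chaperone calreticulin, fell in H-23 (-0.39 and -0.31) and had values of 0.04 and 0.10 in H-1299 that were not called.

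The integrated stress response list went the other way. Of 26 members, the difference was called lower in H-1299 for 13 and higher for 3. The median was -0.43, and it was -0.66 without H-1299 carfilzomib replicate 1, -0.29 without H-1299 DMSO replicate 1 and -0.23 without H-23 carfilzomib replicate 3. In H-1299, 18 fell and 5 rose (median -0.46), and in H-23, 4 fell and 6 rose (median -0.06). Amino acid and stress genes that ATF4 controls fell in H-1299 and had no call in H-23: ASNS (asparagine synthetase) at -1.89 and -0.17, GDF15 (a stress cytokine) at -1.86 and -0.03, and STC2 (stanniocalcin) at -1.73 and -0.12. ATF4 itself was not called in H-1299 (-0.01) and fell by 0.34 on the log2 scale in H-23.

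DDIT4 (ENSG00000168209), an inhibitor of mTORC1, had the largest negative difference of the list. It stood at 102, 105 and 106 CPM against 87.8, 88.4 and 100 CPM in H-23, where the change was not called (-0.18, adjusted p = 0.52). In H-1299 it fell from 124, 64.0 and 142 CPM to 18.7, 19.8 and 16.7 CPM, a difference of -2.40 ± 0.27 (adjusted p = 1.35e-06). DMSO replicate 2 of H-1299 was the lowest of its group for DDIT4, CHAC1 and TRIB3, and treated libraries lay below it for the first 2 genes. CHAC1, a glutathione-degrading enzyme, fell in both lines, by 2.60 in H-1299 and 1.08 in H-23 on the log2 scale. TRIB3, a pseudokinase induced by ATF4, fell by 0.45 on the log2 scale in H-1299 with overlapping libraries and rose by 0.48 in H-23. Its difference of -0.92 ± 0.22 (adjusted p = 0.00206) was no longer called without replicate 3 of all groups (-0.60, adjusted p = 0.0567).

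Within the same list a few members kept the direction of the stress genes. PPP1R15A (ENSG00000087074), the phosphatase subunit GADD34, rose from 31.7, 32.6 and 33.2 CPM to 43.9, 42.9 and 43.5 CPM in H-23. It rose from 28.04, 31.5 and 30.4 CPM to 123, 128 and 126 CPM in H-1299, a difference of 1.66 ± 0.07 (adjusted p = 1.38e-11). The treatments were apart in both lines. ATF3 rose in both (0.94 and 0.60), and DDIT3, the gene of CHOP, rose by 0.31 in H-1299 and 0.48 in H-23 with no call for the difference (adjusted p = 0.38). CTH, which makes cysteine, rose more in H-23 (1.92) than in H-1299 (0.88), a difference of -1.04.

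Many oxidative stress genes of the NRF2 program rose in both lines. Of 24 members, 13 rose in both, 15 in H-1299 (median 0.41) and 15 in H-23 (median 0.22), and the difference was called higher in H-1299 for 12 and lower for 2. GCLM (ENSG00000023909), a subunit of the enzyme that limits glutathione synthesis, rose from 74.5, 80.3 and 79.1 CPM to 115, 125 and 122 CPM in H-23, and from 61.0, 72.5 and 54.7 CPM to 250.2, 236 and 255 CPM in H-1299. No library of 1 treatment overlapped the other (difference 1.35 ± 0.10, adjusted p = 1.64e-08). HMOX1, heme oxygenase, rose nearly alike in the lines, by 1.60 ± 0.06 in H-1299 and 1.35 ± 0.06 in H-23. Its difference of 0.25 ± 0.08 (adjusted p = 0.0244) was lost under library totals (0.15, adjusted p = 0.152). ME1, malic enzyme, rose more in H-23 (1.79) than in H-1299 (1.45).

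**Figure D3:**
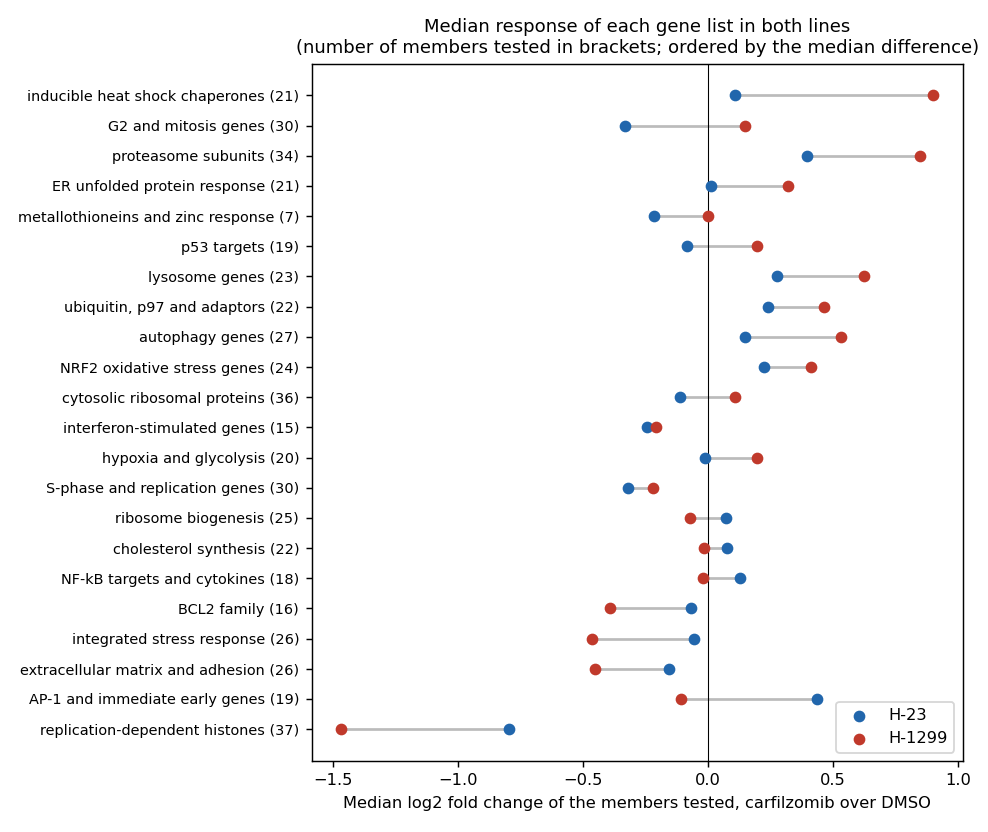
For each gene list other than the marker lists, the median log2 fold change of its tested members in H-23 (blue) and in H-1299 (red), joined by a line and ordered by the median difference. Chaperones, with medians of 0.90 in H-1299 and 0.11 in H-23, lie at 1 end, and histones, with -1.47 and -0.80, at the other, where the AP-1 list is close (median differences of -0.62 and -0.61).

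Many genes of cell division moved in opposite directions. Of 30 G2 and mitosis genes, the difference was called higher in H-1299 for 28 and lower for 1 (median 0.44). In H-23, 28 fell and none rose (median -0.33). In H-1299, 16 rose and 6 fell (median 0.15), and 15 genes both rose in H-1299 and fell in H-23. Under scaling by library totals the H-1299 counts became 14 risen and 12 fallen (median 0.04), while the H-23 counts did not change, so the direction in H-1299 depended on scaling more than the difference did (22 higher and 2 lower).

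MKI67 (ENSG00000148773), the gene of the proliferation antigen Ki-67, fell in H-23 from 326, 323 and 335 CPM to 246, 252 and 238 CPM. Within H-1299 it rose from 295, 306 and 294 CPM to 398, 412 and 414 CPM. The 4 groups did not overlap (difference 0.87 ± 0.05, adjusted p = 1.27e-09). CDC25C (ENSG00000158402), the phosphatase that activates CDK1 at entry into mitosis, went from 27.8, 33.02 and 30.5 CPM to 22.1, 24.5 and 27.1 CPM in H-23, where the groups were close but apart. Within H-1299 it rose from 58.8, 56.0 and 62.2 CPM to 98.2, 99.1 and 99.2 CPM, and the difference was 1.04 ± 0.10 (adjusted p = 1.8e-07). The mitotic motor KIF11, the checkpoint kinase gene BUB1B and the kinase gene AURKA were also opposite, at 0.45, 0.42 and 0.41 in H-1299 and -0.37, -0.38 and -0.30 in H-23. CCNB1, cyclin B1, was not called in H-1299 (0.07) and fell by 0.31 on the log2 scale in H-23. The exception was CDC20, an activator of the anaphase-promoting complex, which fell in both, by 0.46 and 0.24 on the log2 scale in H-1299 and H-23.

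Mitotic promoters are known for 2 short motifs, CCAAT, bound by NF-Y, and TTTGAA, the cell cycle genes homology region bound by the DREAM and MuvB complexes. The windows of MKI67 (chr10:128126424-128126673, minus strand) and of PLK1 (chr16:23678639-23678888, plus strand) are shown because both genes moved in opposite directions under TMM. PLK1, which encodes a mitotic kinase, rose by 0.15 in H-1299 and fell by 0.30 on the log2 scale in H-23. Directions of G2 and mitosis genes in H-1299 depended on scaling, as given above. Both windows come from the same source and span the same 250 bases before the start. Capitals mark a match to either motif on either strand, and matches may overlap.
MKI67: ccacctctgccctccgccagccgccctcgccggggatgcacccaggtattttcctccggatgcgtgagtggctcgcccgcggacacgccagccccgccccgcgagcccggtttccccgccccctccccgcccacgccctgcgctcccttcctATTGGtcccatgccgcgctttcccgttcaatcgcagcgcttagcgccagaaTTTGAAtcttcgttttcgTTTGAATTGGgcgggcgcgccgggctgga
PLK1: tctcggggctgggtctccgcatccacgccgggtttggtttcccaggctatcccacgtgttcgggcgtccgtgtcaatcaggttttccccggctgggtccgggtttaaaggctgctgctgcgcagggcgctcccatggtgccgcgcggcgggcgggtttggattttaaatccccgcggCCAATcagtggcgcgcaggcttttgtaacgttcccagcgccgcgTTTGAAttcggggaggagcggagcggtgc
MKI67 held 2 matches of each motif and PLK1 held 1 of each. TTTGAA was found in 14.2% of the 239 genes with a single window that rose in H-1299 and fell in H-23, against 8.92% of all 9382 and 7.78% of the 180 genes of the reverse pattern. CCAAT was found in 47.7%, 34.9% and 31.1% of the same sets. Of the 2362 genes with a single window and a higher difference in H-1299, 8.72% held TTTGAA and 40.8% held CCAAT. Of the 2177 with a lower difference, 6.57% and 32.1% did. Of the 20 G2 and mitosis genes with a single window, 13 held TTTGAA and 17 held CCAAT. The AP-1 letters TGACTCA were found in 12 of 180 genes that fell in H-1299 and rose in H-23 (6.67%). These letters were found in 1 of 239 genes of the reverse pattern (0.418%) and in 3.04% of all. Among genes called for the difference, 1.98% of the 2177 lower in H-1299 and 2.29% of the 2362 higher there held them.

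S-phase genes were mixed. Of 30 replication genes, 25 fell in H-23 and 1 rose (median -0.32), and in H-1299, 17 fell and 10 rose (median -0.22). The difference was called higher in H-1299 for 13 and lower for 8, and its median of 0.10 was 0.0018 under library totals and 0.062 without replicate 3 of all groups. The 8 opposite genes that rose in H-1299 included CDT1, which licenses replication origins (0.50 in H-1299, -0.41 in H-23), and CDC45, a part of the replicative helicase (0.48 and -0.30). The helicase genes MCM2, MCM3, MCM4, MCM5, MCM6 and MCM7 fell in both lines. MCM6 (ENSG00000076003) fell from 184, 192 and 194 CPM to 168, 167 and 172 CPM in H-23, and from 209, 216 and 204 CPM to 95.3, 94.6 and 87.1 CPM in H-1299. Both falls were free of overlap, and the difference was -1.01 ± 0.06 (adjusted p = 1.18e-09).

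The genes of replication-dependent histones, which are made in S phase, fell in both lines and further in H-1299. Of 37 tested, 33 fell in both lines, and the difference was called lower in H-1299 for 30 and higher for 1. The median log2 fold change was -1.47 in H-1299 and -0.80 in H-23. The linker histone H1-5 fell by 2.05 in H-1299 and 0.81 in H-23 on the log2 scale. H4C9, at 32.6 to 35.6 CPM in H-1299 with DMSO, fell there by 1.98 on the log2 scale, and was called higher in H-23 (0.77) from levels of 0.476 to 0.729 CPM with overlapping libraries. H3C3 was the 1 member with a higher difference, at no more than 18 counts in any library. Histone genes are near-identical copies, so how reads were divided among them is uncertain.

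Ribosomal protein genes shifted slightly. Of 36, the difference was called higher in H-1299 for 24 and lower for none (median 0.21), while 17 fell and none rose in H-23 (median -0.11). In H-1299, 18 rose and 4 fell (median 0.11) under TMM, but 9 rose and 10 fell (median -0.0025) under library totals, so a direction in H-1299 cannot be given. RPS20, of the small subunit, had the largest difference, 0.54 ± 0.06. Of 25 genes of ribosome biogenesis, the difference was called higher for 1 and lower for 10, with a median near 0 that took both signs as libraries were left out (-0.13 to 0.083) and with POLR1B, a subunit of RNA polymerase I, at -0.96 ± 0.08.

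**Figure D4:**
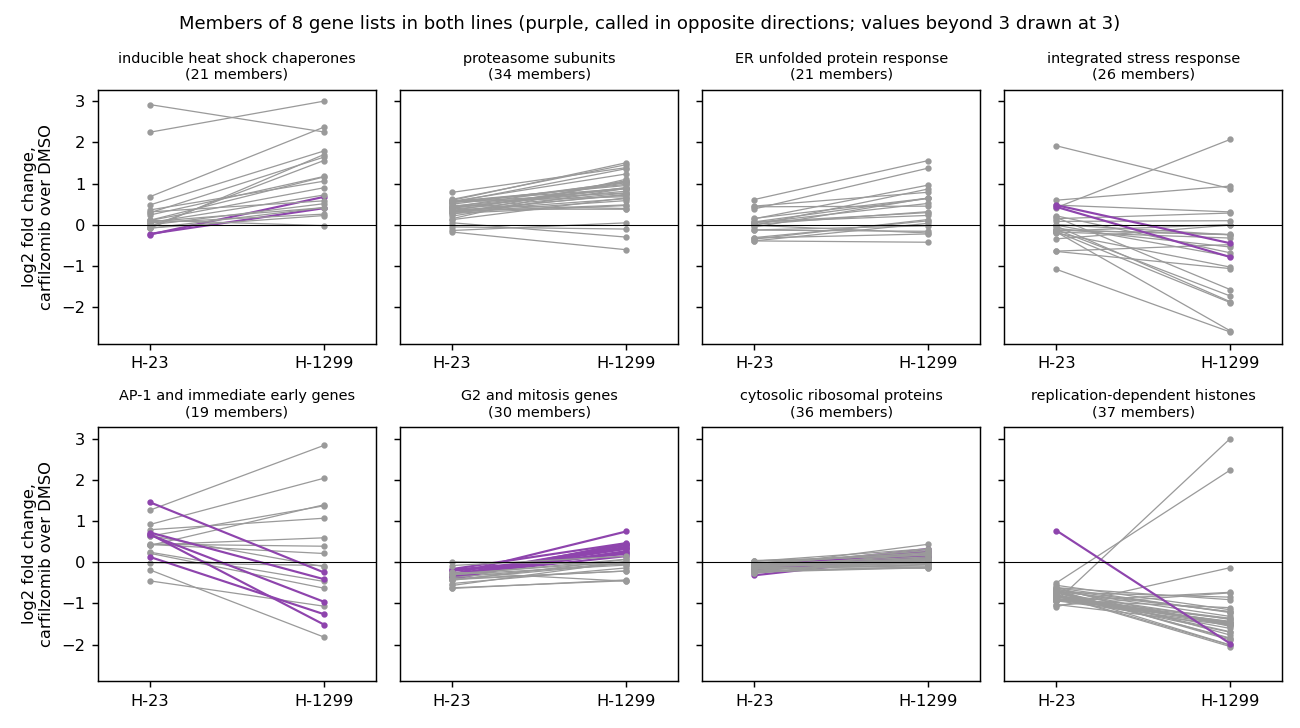
Members of 8 gene lists as lines that join the log2 fold change in H-23 (left) to that in H-1299 (right), from edgeR and drawn at 3 where they lie beyond, with genes called in opposite directions in purple. G2 and mitosis genes hold 15 such genes that rise from left to right, and AP-1 and immediate early genes hold 5 that go down.

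Immediate early genes, including the AP-1 factors that bind as dimers of FOS and JUN proteins, were raised more widely in H-23. Of 19 tested, 14 rose and 1 fell in H-23 (median 0.44). In H-1299, 8 rose and 7 fell (median -0.11). The difference was called lower in H-1299 for 8 and higher for 5, and 5 genes fell in H-1299 and rose in H-23. Its median of -0.61 was -0.28 without H-1299 carfilzomib replicate 2, H-1299 DMSO replicate 1 or H-23 DMSO replicate 3, and -0.21 without H-1299 DMSO replicate 2. FOS, FOSB and JUN were among the 8 that rose in both lines, with log2 fold changes of 2.04, 2.83 and 1.37 in H-1299 and 0.91, 1.26 and 0.63 in H-23. The 5 opposite genes were KLF4, FOSL1, MYC, IER2 and DUSP5.

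KLF4 (ENSG00000136826), a zinc finger transcription factor, rose from 6.66, 7.13 and 7.25 CPM to 11.6, 10.7 and 11.3 CPM in H-23. Within H-1299 it fell from 27.97, 24.6 and 30.2 CPM to 11.1, 9.42 and 8.52 CPM, so the lines were apart with DMSO and interleaved with carfilzomib. The difference was -2.19 ± 0.15 (adjusted p = 6.59e-09). MYC (ENSG00000136997), a driver of growth and proliferation, rose from 171, 178 and 182 CPM to 293, 292 and 289 CPM in H-23. Within H-1299 it fell from 212, 269 and 238 CPM to 176, 175 and 189 CPM, without overlap, and the difference was -1.13 ± 0.09 (adjusted p = 2.27e-08). FOSL1, which encodes the AP-1 subunit FRA1, had log2 fold changes of -0.96 in H-1299 and 0.66 in H-23.

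NF-κB targets and cytokine genes leaned the same way. Of 18 tested, 7 rose and 2 fell in H-23, 1 rose and 8 fell in H-1299, and the difference was called lower in H-1299 for 9 and higher for 1 (median -0.32, and -0.17 without replicate 2 of all groups). CXCL2 (ENSG00000081041), a chemokine that attracts neutrophils, rose from 16.6, 18.8 and 18.2 CPM to 36.4, 37.4 and 39.4 CPM in H-23. In H-1299 it fell from 38.3, 35.9 and 36.7 CPM to 20.3, 19.9 and 25.7 CPM. The treated level of each line lay near the control level of the other (difference -1.84 ± 0.12, adjusted p = 2.43e-09). TRAF1, a signalling adaptor, was the other opposite gene of this list, at -0.41 and 0.31. CXCL8 rose in H-23 (1.38), while most H-1299 libraries had no count, so that its difference was undetermined (-0.11 ± 2.41).

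Of 26 genes of a list of matrix and adhesion, the difference was called lower in H-1299 for 11 and higher for none. Its median was -0.48, and -0.28 without H-1299 carfilzomib replicate 3. Outside the list, COL5A2 and TLN2 had higher differences (1.71 and 1.49). In the list, 3 fell in H-1299 and rose in H-23, LOX and ITGA2 among them. LOX, which crosslinks collagen, had -0.97 in H-1299 and 0.55 in H-23, and the integrin gene ITGA2 -0.62 and 0.42.

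Of 19 p53 targets, the difference was called higher in H-1299 for 8 and lower for 3. The median was 0.32, and 0.089 without H-1299 carfilzomib replicate 2. MDM2, which degrades p53, and the ribonucleotide reductase subunit gene RRM2B rose in H-1299 (0.32 and 0.22) and fell in H-23 (-0.17 and -0.20). CDKN1A (ENSG00000124762), the gene of the CDK inhibitor p21, rose from 112, 110.4 and 111 CPM to 173, 170.3 and 168 CPM in H-23, and from 33.4, 33.7 and 31.1 CPM to 72.1, 73.6 and 73.7 CPM in H-1299. Its treatments were apart in both lines (difference 0.54 ± 0.06, adjusted p = 6.88e-07).

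Of 16 genes of the BCL2 family, which sets the threshold of apoptosis, the difference was called lower in H-1299 for 6 and higher for 2 (median -0.42, and -0.24 without replicate 3 of all groups). MCL1, a protective member, and PMAIP1, the killer protein NOXA, both fell in H-1299 (-0.30 and -0.52) and rose in H-23 (0.31 and 0.35). BBC3, the killer protein PUMA, fell by 0.84 on the log2 scale in H-1299 with overlapping libraries and was not called in H-23 (0.22). BAK1, a pore former, rose in both lines, by 0.66 and 0.18.

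Metabolic lists were mixed. Of 22 cholesterol synthesis genes, the difference was called higher in H-1299 for 6 and lower for 8. The median of -0.11 was -0.061 without H-23 DMSO replicate 3 and 0.0081 without replicate 3 of all groups. HMGCS1, an early enzyme of the pathway, rose by 1.03 in H-1299 and 0.34 in H-23, while TM7SF2, a late reductase, fell by 1.95 and 0.49 on the log2 scale. Of 20 hypoxia and glycolysis genes, 6 differences were called higher and 5 lower. The median of 0.12 was 0.015 without H-1299 carfilzomib replicate 2 and 0.018 under library totals. HK2 (ENSG00000159399), a hexokinase, rose from 80.9, 84.8 and 82.6 CPM to 103, 115 and 112 CPM in H-23. Within H-1299 it fell from 46.8, 59.2 and 51.5 CPM to 20.3, 22.4 and 23.9 CPM, and no treatments overlapped (difference -1.65 ± 0.11, adjusted p = 2.7e-09). The aldolase gene ALDOC showed the reverse, at 0.90 in H-1299 and -0.54 in H-23.

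Of 7 metallothionein and zinc genes tested, the difference was called lower in H-1299 for 3 and higher for 1, while their median was 0.37, with 3 others at next to no counts in H-1299, and 0.17 to 0.41 as libraries were left out. MT2A (ENSG00000125148), a metal-binding protein, fell from 66.6, 65.2 and 77.2 CPM to 61.9, 58.0 and 60.5 CPM in H-23. It fell from 77.5, 75.0 and 85.3 CPM to 18.9, 21.1 and 24.0 CPM in H-1299, a difference of -1.68 ± 0.11 (adjusted p = 3.32e-09). Of 15 interferon-stimulated genes, the difference was called higher for 5 and lower for 2, with a median of 0.18 that was -0.15 when all 48 libraries were fitted and -0.046 to 0.20 as libraries were left out. ISG15, a ubiquitin-like protein, fell in both lines, by 1.01 in H-1299 and 0.26 in H-23 on the log2 scale.

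Of 26 markers of cell identity tested, 7 had a call for the difference (26.9%), a smaller share than the 42.5% over all genes. Apart from CDH1, KRT8, KRT18, CHGB, SYP and VIM, every marker stood at or under 5.69 CPM in the mean of each group. The part of low counts in the smaller share was not tested. Of 10 epithelial markers tested, the difference was called lower in H-1299 for 2 and higher for 1. KRT18 (ENSG00000111057) fell from 696, 785 and 734 CPM to 297, 308 and 288 CPM in H-1299 and was called higher in H-23 by 0.15 (difference -1.46 ± 0.07, adjusted p = 1e-10). The sum over the epithelial list, nearly all of it from KRT8 and KRT18, went from 1040 to 406 CPM in H-1299 and from 4020 to 4140 CPM in H-23. CDH1 fell in H-23 from 105, 98.0 and 107 CPM to 28.1, 24.9 and 27.8 CPM, and its difference has no meaning as H-1299 was at or near 0. VIM was the 1 mesenchymal marker of 7 with a call for the difference (-0.75 ± 0.06), at -0.62 in H-1299 and 0.13 in H-23. Of 4 neuroendocrine markers tested, CHGB and SYP had lower differences (-1.80 and -0.60), and of 5 blood and endothelial markers only CDH5, under 1.1 CPM throughout, had a call (difference 3.50, adjusted p = 0.0436), which was lost when most of the single libraries were left out and turned to -1.53 without replicate 2 of all groups. The part of these marker changes in the other results was not tested.

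Outside the lists, the opposite genes with the largest change in both lines were named by rule. Among genes expressed in both lines that fell in H-1299 and rose in H-23 these included ANKRD1, DACT1, TM4SF1 and SH3TC2. TM4SF1 (ENSG00000169908), a tetraspan surface protein, rose from 118, 127 and 127 CPM to 278, 302 and 308 CPM in H-23, and fell from 419, 417 and 419 CPM to 201, 213 and 244 CPM in H-1299. As with CXCL2, the order of the lines turned over with treatment, without overlap of the 4 groups (difference -2.19 ± 0.08, adjusted p = 4.68e-12). ANKRD1, a target of the coactivator YAP, rose in H-23 by 1.72 on the log2 scale, from 0.519, 0.464 and 0.384 CPM to 1.13, 1.78 and 1.46 CPM. It fell in H-1299 by 1.21 on that scale, from 13.8, 30.4 and 18.1 CPM to 9.25, 8.51 and 9.04 CPM, with DMSO replicate 2 the highest. DACT1, an antagonist of Wnt signalling, had -1.20 and 1.00, and SH3TC2, an endosomal adaptor, -1.76 and 0.92.

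Of the reverse pattern, the named genes expressed in both lines were DHRS2, TLN2, ACRBP, MAN1A1 and COL5A2. DHRS2 (ENSG00000100867), a short-chain dehydrogenase of mitochondria and nuclei, fell from 14.5, 14.1 and 15.6 CPM to 6.75, 5.4 and 5.31 CPM in H-23. In H-1299 it rose from 7.32, 7.36 and 7.78 CPM to 24.3, 22.1 and 19.3 CPM. No library of 1 group lay within another group, and the order of the lines turned over (difference 2.91 ± 0.16, adjusted p = 5.44e-10). COL5A2, a fibrillar collagen chain, fell in H-23 from 259.6, 256 and 267 CPM to 180.4, 168 and 176 CPM and rose in H-1299 from 3.06, 2.31 and 4.06 CPM to 5.98, 6.84 and 7.94 CPM. TLN2, the adhesion protein talin 2, had 0.67 in H-1299 and -0.82 in H-23. Over all genes tested the rule also named ETV7, CXCR4, PDZD4, DAPK2, RHCG and SLC35F1, each under 1.1 CPM in some group.

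**Figure D5:**
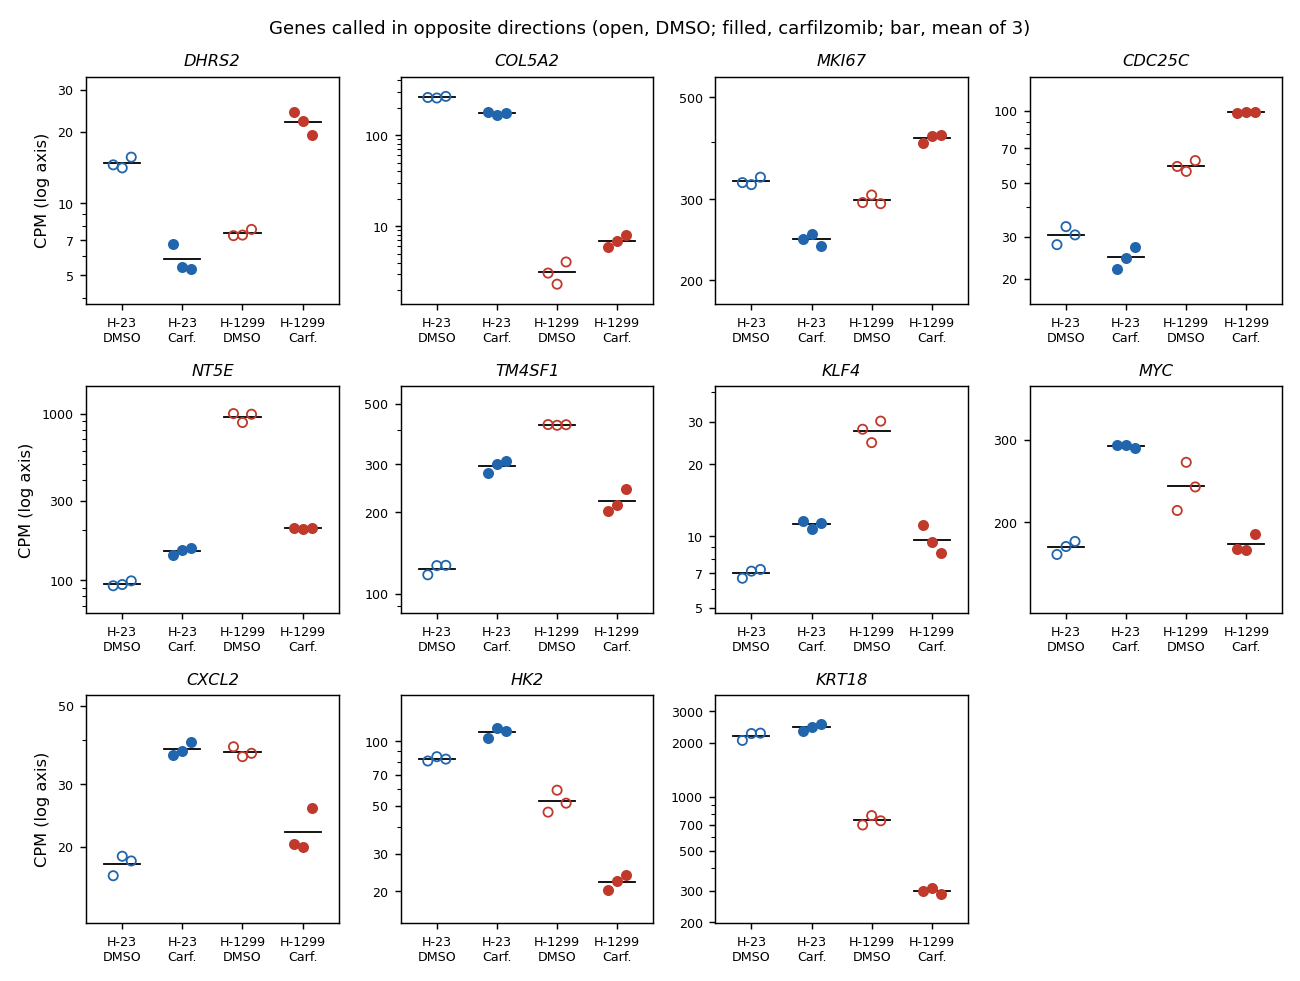
Levels of 11 genes called in opposite directions, in CPM on a log axis, with DMSO libraries open, carfilzomib libraries filled, H-23 in blue, H-1299 in red and the mean of 3 as a bar. The first 4 panels rise in H-1299 and fall in H-23, and the other panels show the reverse, with no overlap between the treatments of either line.

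The largest differences of all, by the naming rule over all genes tested, lay in genes that were nearly silent in 1 line. Of 16 such genes, 15 had a mean under 50 counts in a line, so their fitted folds depend on a few counts. TNFRSF19, a receptor of the tumour necrosis factor family, stood at 68.4 to 69.5 CPM in H-23 with DMSO and fell there by 1.11 on the log2 scale. In H-1299 it had 18, 11 and 11 counts with DMSO and none with carfilzomib, which makes it at least 2.37-fold lower against 3 counts per library. AKR1B10, an NRF2-regulated reductase, had no count in H-1299 with DMSO and 42, 73 and 35 counts with carfilzomib, at least 28-fold higher on the same basis, and no more than 15 counts in any H-23 library. The kinase gene HUNK and the receptor gene S1PR3 had no count in H-1299 with DMSO and at most 6 with carfilzomib. The water channel gene AQP1 had 15, 6 and 15 counts in H-1299 with DMSO and none with carfilzomib, at least 2.15-fold lower. The remaining genes of this group were HTRA3, ABCC9, NGFR and SPAG6 with a higher difference, and MEI4, SLC2A2, UNC5B, SLCO1A2, GLIS1 and CCN5 with a lower one. SPAG6 fell in both lines, with log2 fold changes of -1.11 in H-1299 and -5.46 in H-23. In H-23 it had at most 10 counts with DMSO and none with carfilzomib.

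Among genes expressed in both lines, a rule added after the data were seen named the 8 largest differences each way. After HSPA6 and ZFAND2A, the higher ones included DHRS2, STYK1, CPA4, C7orf61 and RGMA. STYK1 (ENSG00000060140), a receptor-like kinase also called NOK, rose from 42.5, 39.8 and 42.9 CPM to 59.7, 62.4 and 64.0 CPM in H-23. Within H-1299 it rose from 3.54, 4.38 and 3.59 CPM to 39.8, 39.7 and 36.4 CPM. The treated H-1299 libraries reached about the level of untreated H-23 (difference 2.77 ± 0.10, adjusted p = 2.78e-12).

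The lower ones were CITED4, VGF, SCN2A, NTSR1, TRIB2, SLC38A4, ANKRD1 and NT5E. NT5E (ENSG00000135318), the surface enzyme CD73 that makes adenosine, rose from 92.4, 94.0 and 98.9 CPM to 142, 151 and 156 CPM in H-23. In H-1299 it fell from 1001, 885 and 992 CPM to 207, 202 and 207 CPM. The treatments were apart in both lines, with a difference of -2.88 ± 0.07 (adjusted p = 5.35e-14). NTSR1, a neurotensin receptor, rose by 0.76 in H-23 and fell by 2.32 on the log2 scale in H-1299 (difference -3.08 ± 0.17).

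CITED4 (ENSG00000179862), a coactivator that binds CBP and p300, stood at 15.2, 15.2 and 13.8 CPM against 13.4, 12.1 and 13.6 CPM in H-23, apart but without a call (adjusted p = 0.364). Within H-1299 it fell from 21.3, 17.9 and 16.2 CPM to 1.99, 1.16 and 2.01 CPM, a difference of -3.28 ± 0.21 (adjusted p = 3.32e-09). VGF, a neuropeptide precursor, fell in H-1299 from 81.2, 79.0 and 76.2 CPM to 8.5, 12 and 10.6 CPM and was not called in H-23 (0.21, adjusted p = 0.057). The control libraries of H-1299 were the highest and its treated libraries the lowest of the 12 for both genes.

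Some shared responses were strong in both lines. At least 2-fold in each line, 66 genes rose together and 27 fell together. Besides HSPA6, the named genes expressed in both lines that rose were DYNC1I1, NAP1L2, TUBA4A and ADAMTS1. DYNC1I1 (ENSG00000158560), an intermediate chain of cytoplasmic dynein, rose from 0.195, 0.332 and 0.367 CPM to 2.04, 1.89 and 2.00 CPM in H-23. Within H-1299 it rose from 2.6, 2.9 and 2.17 CPM to 24.4, 28.4 and 25.9 CPM. The log2 fold changes were 2.70 and 3.36, and their difference of 0.66 ± 0.27 was not called (adjusted p = 0.063). TUBA4A, an alpha tubulin, rose by 4.12 in H-1299 and 1.70 in H-23, and ADAMTS1, a secreted protease, by 3.41 and 1.52. The histone chaperone gene NAP1L2 rose by 2.55 and 1.71.

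The shared falls named by rule among genes expressed in both lines were VAT1L, TMSB15A, SORL1, TNS3 and CHAC1. SORL1 (ENSG00000137642), a sorting receptor of endosomes, fell from 43.3, 40.98 and 45.6 CPM to 20.8, 18.3 and 19.04 CPM in H-23. Within H-1299 it fell from 136, 114 and 133 CPM to 30.5, 31.9 and 29.4 CPM. Both falls were free of overlap, and the fall was larger in H-1299 (difference -0.89 ± 0.10, adjusted p = 1.17e-06). TNS3, the focal adhesion protein tensin 3, fell by 1.89 and 1.10 on the log2 scale. TMSB15A, a thymosin, fell by 1.56 and 1.53, with an interval of the difference (-0.03 ± 0.38 SE) that allows either sign. Over all genes tested the rule also named COL5A1, SORCS2 and JPH1, each low in 1 line.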

How the data were processed

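The deposited table holds the authors' raw read counts for 33892 gene rows, per its whole-number values and the series' labels. The labels give a stranded kit for total RNA, whereas the series describes its libraries as mRNA. The submitters' processing notes name bcl2fastq 2.19, FastQC, Trimmomatic, HISAT2, DESeq2 and hg38, with no role or order. The counting program, annotation and use of strand are not given in the sources used here, so genes that overlap or lie antisense to each other cannot be told apart.

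The 12 libraries, 4 groups of 3, were fitted with edgeR 4.0.16 in R 4.3.3: filterByExpr left 19070 rows, TMM factors were applied, and a quasi-likelihood model with 8 residual degrees of freedom gave the effect in each line and their difference, with Benjamini-Hochberg adjustment over all rows at 0.05. Rows that share an identifier were kept apart and not named, except HSPA1A with HSPA1B. CRYAB was not tested for low counts. The members and gene lists were chosen with earlier results of these data known. Named genes were protein-coding, held by a single row, and at a mean of 50 counts or more in some group: the 8 largest differences each way without overlap of treatments in the line with the larger change, the 5 largest shared and opposite responses of each kind, a fixed set of stress, division and signalling genes, and the most extreme called member of each list. A few genes that this rule names are not reported here. The same rule among rows expressed in both lines was added after the data were seen. Gene types came from GENCODE 29 (29680 rows matched) and promoters from RefSeq (13154 tested rows matched by symbol). The fit was also run on simulated data in which few genes changed, in treated H-1299 alone. That run does not cover data with as large a share of called genes as these. Alternatives used DESeq2 1.42.0, limma 3.58.1, other scalings, filters, a null fold of 1.5, thinning, left-out libraries and a fit of each line alone. Counts limit low genes most. The p-values rest on the spread between biological replicates within groups, pooled over the 4 groups of 3, also for the effect in a single line.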

Additional observations from a re-analysis of the deposited data

Results flagged for a closer look

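The effect of carfilzomib differed between the lines by edgeR's test of the difference itself for 4165 genes with a higher change in H-1299 and 3937 with a lower one. It was called in opposite directions for 408 genes that rose in H-1299 and fell in H-23 and for 355 with the reverse. Among the genes that the naming rule picked and that are reported here, 32 were called in opposite directions, 14 of the first pattern and 18 of the second. Further opposite genes in the text are members of its lists. Groups of 3 libraries are too small for a check of single outlying libraries.

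Of the 14 that rose in H-1299, the difference on the log2 scale was 2.91 for DHRS2, 2.15 for ACRBP, 1.71 for COL5A2, 1.49 for TLN2 and 1.40 for MAN1A1. It was 1.04 for CDC25C, 0.91 for CDT1, 0.87 for MKI67 and 1.45 for ALDOC. The genes low in H-1299 had 6.57 for HUNK, 3.25 for ETV7, 2.20 for CXCR4, 2.04 for DAPK2 and 1.77 for PDZD4, and these fitted values rest on few counts and are no bounds. PDZD4 had overlapping libraries in H-1299, and its call there was lost under library totals (0.76, adjusted p = 0.0736 by edgeR).

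Of the 18 that fell in H-1299, the difference was -2.93 for ANKRD1, -2.20 for DACT1, -2.19 for TM4SF1 and -2.68 for SH3TC2. NT5E had -2.88, NTSR1 -3.08, KLF4 -2.19, CXCL2 -1.84, MYC -1.13 and HK2 -1.65. KRT18 had -1.46, VIM -0.75 and TRIB3 -0.92, the last with overlapping libraries in H-1299. Few counts in a line lie behind H4C9 (-2.74), SLC35F1 (-3.17), SLCO1A2 (-4.56), MEI4 (-4.77) and RHCG (-6.16), of which H4C9 overlapped in H-23 and RHCG in H-1299. With all 48 libraries fitted, at least 1 of the calls behind an opposite response was lost for ACRBP, ETV7, H4C9, KRT18, MEI4, PDZD4, SLC35F1, SLCO1A2 and VIM.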

How the results depend on the processing

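Against a null fold of 1.5, the difference was called for 596 higher and 1054 lower, H-1299 for 1350 and 1883, H-23 for 109 and 50, shared responses for 59 and 30, and opposite responses for 1 and 6. Fitting all 48 libraries left 197 genes that rose in H-1299 and fell in H-23. The cause was not tested. Leaving out a library or a replicate number gave 3192 to 4186 higher and 3045 to 4055 lower differences, 4453 to 5169 and 4780 to 5549 calls in H-1299, 1601 to 2659 and 1740 to 2846 in H-23, 1065 to 1687 and 1020 to 1623 shared calls, and 199 to 453 and 192 to 396 opposite calls. The lowest H-23 and opposite counts came without replicate 3 of all groups, and opposite counts also fell without replicate 1, to 233 and 204, where fewer libraries were fitted. Scaling by library totals moved the share of higher calls among called differences from 51.4% to 40% and in H-1299 from 48.3% to 38.9%, while 48 libraries gave 43.2% and 42.2%. No pairing by replicate number was seen: same-numbered libraries had correlations of their deviations between -0.0286 and 0.0249 over 18 pairs. These values do not settle whether same-numbered libraries were handled together. With a replicate block the difference was called for 4147 and 3922 genes and for 7805 of the same genes, and among named genes it ended the call for CDH5 alone (2.95). Uncalled or nearly silent genes changed sign: CXCL8 to 0.0629 by DESeq2 and TMSB15A to 0.109 when thinned. Leaving out libraries gave differences of -1.53 to 5.50 for CDH5, -4.54 to 3.11 for CXCL8, -0.301 to 0.0206 for DDIT3 and -0.302 to 0.387 for TMSB15A. Depth limits genes under about 50 counts.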

Other observations

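Classes of RNA differed in how often the difference was called. Over all genes tested, 21.8% were higher in H-1299 and 20.6% lower. Of 641 lincRNAs, the difference was called lower in H-1299 for 124 (19.3%) and higher for 18 (2.81%). Their median log2 fold changes were -0.44 in H-1299 and 0.03 in H-23. Of 729 antisense genes, 126 were lower (17.3%) and 41 higher (5.62%). Of 226 snoRNA genes, 30 were higher (13.3%) and 2 lower (0.885%). Of 14545 protein-coding genes, 3834 were higher (26.4%) and 3462 lower (23.8%). No noncoding class given here exceeded the share of all genes in either direction. Use of strand in counting is not given in the sources used here, which touches antisense genes most.

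The difference also varied with the span of a protein-coding gene on the genome. Of the 2909 shortest genes, from 0.117 to 10 kb, 15.3% had a higher and 30.5% a lower difference (median -0.165). In the 4 longer classes of 2909 genes, between 26.6% and 32.2% were higher and between 21% and 23.7% lower. The part of depth or RNA quality in these patterns was not tested.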
